A study of Homo sapiens with 6 samples.

Results

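Cohesin is the ring-shaped protein complex that holds sister chromatids together from DNA replication until anaphase and that extrudes loops of chromatin in interphase. Its 10 genes examined here are *SMC1A* and 9 partners, namely *SMC3*, *RAD21*, *STAG1*, *STAG2*, *PDS5A*, *PDS5B*, *NIPBL*, *MAU2* and *WAPL*, out of 28395 genes counted. *SMC1A* was chosen because it was lower after KIFC1 knockdown in these same libraries, so its own difference is given as a description with no test. The partners were chosen by name, as the core ring, its loaders and its releasing factors. The question was whether the fall of *SMC1A* was shared by them. All 10 genes passed the filter on low counts.

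RNA was sequenced from NCI-H146 cells (NIH-H146 in the sample titles), an established small-cell lung cancer (SCLC) line, 2 days after transient transfection. In 3 libraries the cells had received a negative control siRNA (labeled WT), and in 3 they had received a KIFC1 siRNA (labeled KIFC1 knockdown). The labels call the libraries biological replicates without saying whether they came from separate cultures, so p-values measure only the spread between these libraries. KIFC1 is a motor protein that gathers extra centrosomes into the poles of a bipolar spindle. The study used more than 1 KIFC1 siRNA. The labels do not say which of them these libraries received, nor whether it was a single one.

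Levels are read counts scaled to library size (CPM, with TMM factors). The libraries held from 15392374 to 17754458 counts, of which mitochondrial genes took from 8.34% to 13.1%. *KIFC1* had 14, 4 and 14 counts in the control siRNA libraries and 1, 1 and 0 counts in the KIFC1 siRNA libraries, too few to pass the filter. Whether these counts hold all *KIFC1* reads was not tested. The study reports the siRNA knockdown in SCLC cells by RT-qPCR and immunoblotting. All 7 neuroendocrine markers of SCLC examined passed the filter, at levels that differed widely. *INSM1*, a neuroendocrine transcription factor, was at 679.7 ± 56.01 CPM in control siRNA libraries (SD, n = 3). *SYP*, a synaptic vesicle protein gene, was at 135.3 ± 5.65 CPM there (SD, n = 3). Of 8 markers of leukocytes, fibroblasts, endothelium and alveolar epithelium, 5 did not pass the filter and the highest, *COL1A2*, was at 9.51 ± 2.22 CPM (SD, n = 3). Not every neuroendocrine marker was above *COL1A2* in the control siRNA libraries. The marker *NCAM1*, named after its value was seen, was lower in all KIFC1 siRNA libraries, as were 7.51% of the genes tested. In the opposite direction, 2 of the 7 neuroendocrine markers were higher in all of them, as were 7.99% of the genes tested. *NCAM1* did not pass the test (edgeR adjusted p = 0.136), and DESeq2 called it. Across the 14776 genes tested, 105 passed an adjusted p of 0.05 (0.711%), 56 of them lower (0.379%), in edgeR's quasi-likelihood test.

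SMC1A and SMC3 are long coiled-coil ATPases whose heads are bridged by the kleisin RAD21, and STAG1 or STAG2 binds RAD21 as an alternative HEAT-repeat subunit. The NIPBL-MAU2 pair loads the ring onto chromatin and stimulates its ATPase, PDS5A and PDS5B bind the loaded ring, and WAPL opens it for release. In mitosis most cohesin leaves chromosome arms through the WAPL route, and separase cuts the RAD21 that remains at centromeres.

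The 7-base word GAGATCT is shown first because the results for *SMC1A*, *MAU2* and *WAPL* are read beside it below. It occurs in the *KIFC1* coding sequence and had been picked out earlier from the fold changes of these same libraries, so every share that uses it is a description. Each sequence is the mRNA strand, 5′ to 3′, of 29 bases of GRCh38, with the word in capitals. The *KIFC1* site lies on the plus strand of chr6:33405471-33405499, in the coding sequence. The *SMC1A* site lies on the minus strand of chrX:53378405-53378433, the *MAU2* sites on the plus strand of chr19:19356646-19356674 and chr19:19357708-19357736, and the *WAPL* site on the minus strand of chr10:86436335-86436363, all of them in the 3′ UTR.
KIFC1 coding site: caagctacgtaGAGATCTacaatgagact
SMC1A 3′ UTR site: acgatgtttttGAGATCTgtgcatgttac
MAU2 3′ UTR first site: cccccgcccccGAGATCTggagcccaggg
MAU2 3′ UTR second site: aagttaaggatGAGATCTtaagtttacaa
WAPL 3′ UTR site: caggctttctaGAGATCTttttcattaat

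*SMC1A* (chromosome X of GRCh38, 53374149 to 53422728) stood at 454.8, 431.4 and 535.7 CPM in the control siRNA libraries and at 270.2, 244.5 and 319.0 CPM in the KIFC1 siRNA libraries. The highest KIFC1 siRNA library was below the lowest control siRNA library. The mean fell from 474.0 ± 54.7 to 277.9 ± 37.9 CPM (SD, n = 3), that is, to 58.6% of control, with a log2 fold change of -0.77 (standard error, SE, 0.13). In bulk RNA, fewer cells that express a gene and less of its RNA per cell cannot be told apart. When single libraries were removed, it ranged from -0.88 to -0.67.

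Among the 9 partners, 1 was lower at an adjusted p of 0.05 (*MAU2*) and 0 were higher, where 0.711% of all genes tested were called in either direction (0.332% higher, 0.379% lower), and 5.78% in a fit blocked on replicate number. *MAU2* was the partner called in that fit too. At an unadjusted p under 0.05 in edgeR, which 1366 of the 14776 genes tested had, *MAU2* was again the only partner. *MAU2* was also the only partner called by DESeq2. The median log2 fold change of the 9 partners was -0.02, with 4 positive and 5 negative, beside a median of 0.01 over all genes tested. For the 8 partners other than *MAU2*, edgeR gave log2 fold changes of -0.11 to 0.12 and adjusted p of 0.875 to 0.989. The lower bounds of their 95% intervals ran from -0.42 to -0.14. The -0.77 of *SMC1A* lay below these bounds. Because *SMC1A* was chosen for its fall, setting the partners against it is a description.

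**Figure D1:**
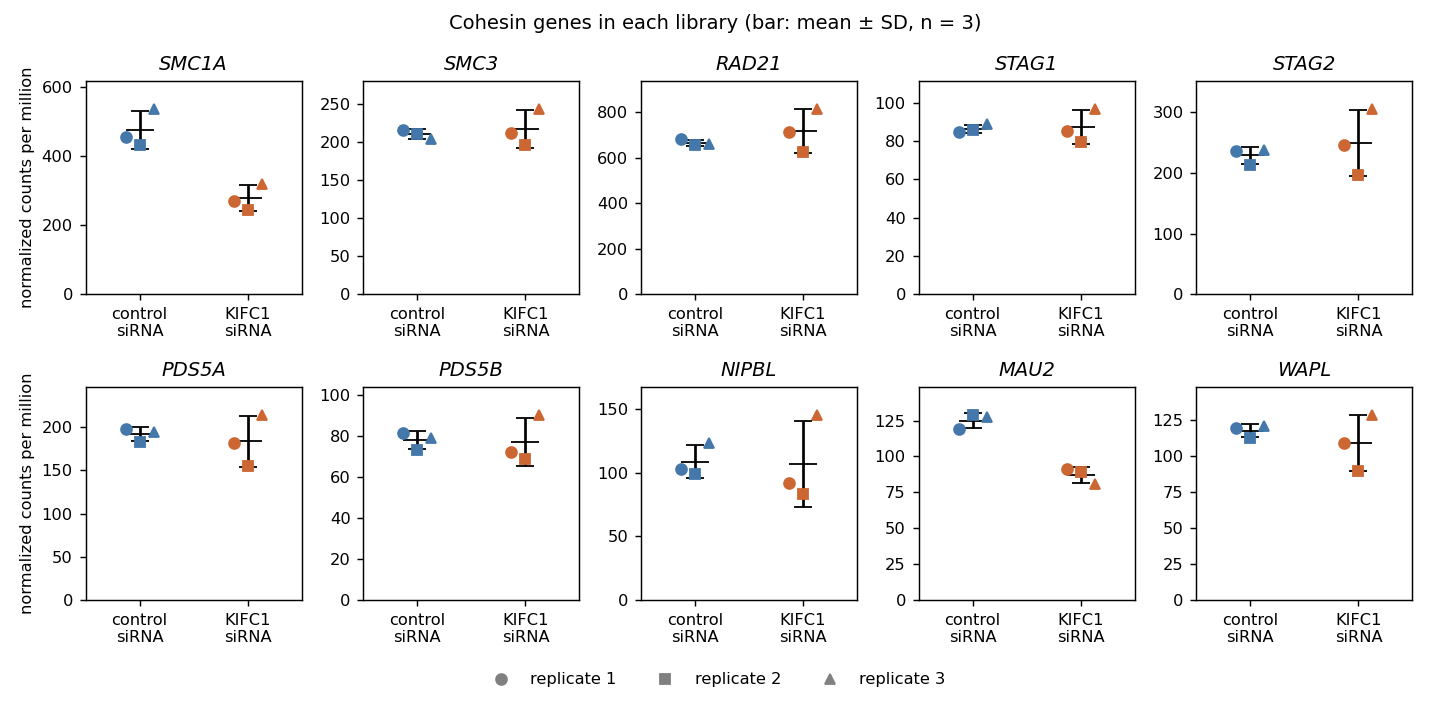
Normalized CPM (y axis, from 0) of the 10 cohesin genes in each control siRNA and KIFC1 siRNA library, with the marker shape giving the replicate number and the bar the mean ± SD (n = 3). The groups are apart for SMC1A and MAU2 and overlap for the other 8 genes.

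*SMC3* encodes the ATPase that pairs with SMC1A in the ring. It stood at 216.6, 211.1 and 203.6 CPM with control siRNA and at 212.5, 195.7 and 243.9 CPM with KIFC1 siRNA. The KIFC1 siRNA libraries lay on both sides of the controls, and the log2 fold change was 0.05 (SE 0.11, edgeR adjusted p = 0.949, 95% interval -0.19 to 0.28). Of the 32-base words of its mRNA, 10.8% also occur elsewhere on GRCh38, against 0.145% for *SMC1A*.

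*RAD21*, the kleisin that closes the ring and that separase cuts, had the most counts of the complex. Its values were 680.0, 657.0 and 659.1 CPM with control siRNA and 710.8, 622.4 and 814.1 CPM with KIFC1 siRNA. The groups overlapped, with a log2 fold change of 0.11 (SE 0.11, edgeR adjusted p = 0.875). For *RAD21*, 14.8% of the 32-base words occur elsewhere on GRCh38.

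*STAG2*, the more abundant of the alternative subunits here, stood at 236.1, 213.6 and 238.0 CPM with control siRNA and at 246.9, 196.5 and 305.9 CPM with KIFC1 siRNA, a log2 fold change of 0.12 (SE 0.14, edgeR adjusted p = 0.888). *STAG1* stood at 84.6, 85.5 and 88.8 CPM with control siRNA and at 85.3, 79.6 and 96.8 CPM with KIFC1 siRNA, a log2 fold change of 0.02 (SE 0.11, edgeR adjusted p = 0.989). Neither subunit gene had groups that were apart. Of the annotated exon bases of *STAG1*, 21.2% overlap *PCCB* on the opposite strand, and the strand setting of the counting is not given in the sources used here, so a part of its counts may belong to that gene. The log2 ratio of *STAG1* to *STAG2* counts within a library was -1.41 ± 0.08 with control siRNA and -1.50 ± 0.18 with KIFC1 siRNA (SD, n = 3; exact permutation p = 0.5, two-sided, adjusted p = 0.5 over 4 ratios).

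*MAU2* (chromosome 19, 19320829 to 19358754), the partner protein of NIPBL in the loader, was the single partner whose groups were apart. It stood at 119.0, 128.9 and 127.2 CPM with control siRNA and at 91.1, 89.4 and 80.5 CPM with KIFC1 siRNA. All 3 KIFC1 siRNA libraries were below all 3 controls, a pattern seen in this direction in 7.51% of the genes tested and in the opposite one in 7.99%. The mean fell from 125.0 ± 5.30 to 87.0 ± 5.66 CPM (SD, n = 3), to 69.6% of control, a log2 fold change of -0.52 (SE 0.10, edgeR adjusted p = 0.0454). The adjusted p lay just under the threshold. With 1 library left out, the log2 fold change stayed between -0.56 and -0.47, but the adjusted p in edgeR was 0.139, 0.262 and 0.261 without control siRNA replicate 1, 2 or 3, and 0.128 and 0.0727 without KIFC1 siRNA replicate 1 or 2. It was 0.0118 without KIFC1 siRNA replicate 3, and 0.0514 with library size as the only scaling. Over all alternatives the adjusted p of *MAU2* ranged from 0.000202 to 0.262. Calls over all genes moved too, from 49 higher and 56 lower with all libraries to 194 and 274 without KIFC1 siRNA replicate 3. Without any other single library they were 9 to 37 higher and 15 to 27 lower.

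*NIPBL*, the large subunit of the loader, stood at 103.2, 99.1 and 123.4 CPM with control siRNA and at 92.0, 83.2 and 145.1 CPM with KIFC1 siRNA. The KIFC1 siRNA libraries thus held both the lowest and the highest value, and the log2 fold change was -0.02 (SE 0.18, edgeR adjusted p = 0.989). Its 95% interval, -0.42 to 0.38, was the widest of the 10 genes. Without KIFC1 siRNA replicate 3 its log2 fold change was -0.31 (adjusted p = 0.134 in edgeR). The log2 ratio of *NIPBL* to *MAU2* counts was -0.21, -0.38 and -0.04 in the control siRNA libraries and 0.01, -0.10 and 0.85 in the KIFC1 siRNA libraries. The groups overlapped (exact permutation p = 0.2, two-sided, adjusted p = 0.4 over 4 ratios, where 3 libraries against 3 cannot give less than 0.1). The mean ratio was 0.46 higher with KIFC1 siRNA, and 0.16 higher without KIFC1 siRNA replicate 3.

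*WAPL*, whose protein opens the ring, stood at 119.6, 112.7 and 121.2 CPM with control siRNA and at 109.5, 89.9 and 128.7 CPM with KIFC1 siRNA. The groups overlapped, with a log2 fold change of -0.11 (SE 0.13, edgeR adjusted p = 0.892, 95% interval -0.39 to 0.18). *PDS5A*, a scaffold through which WAPL acts, ran from 182.8 to 197.7 CPM with control siRNA and from 155.0 to 213.8 CPM with KIFC1 siRNA (log2 fold change -0.06, SE 0.12). Its paralog *PDS5B* ran from 73.1 to 81.3 CPM with control siRNA and from 68.7 to 90.2 CPM with KIFC1 siRNA (log2 fold change -0.02, SE 0.12). The *PDS5A* to *PDS5B* log2 ratio was 1.30 ± 0.02 with control siRNA and 1.25 ± 0.08 with KIFC1 siRNA (SD, n = 3; exact permutation p = 0.4, two-sided, adjusted p = 0.5 over 4 ratios). That of *RAD21* to *SMC3* was 1.66 ± 0.03 and 1.72 ± 0.04 (SD, n = 3; exact permutation p = 0.2, two-sided, adjusted p = 0.4 over 4 ratios).

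**Figure D2:**
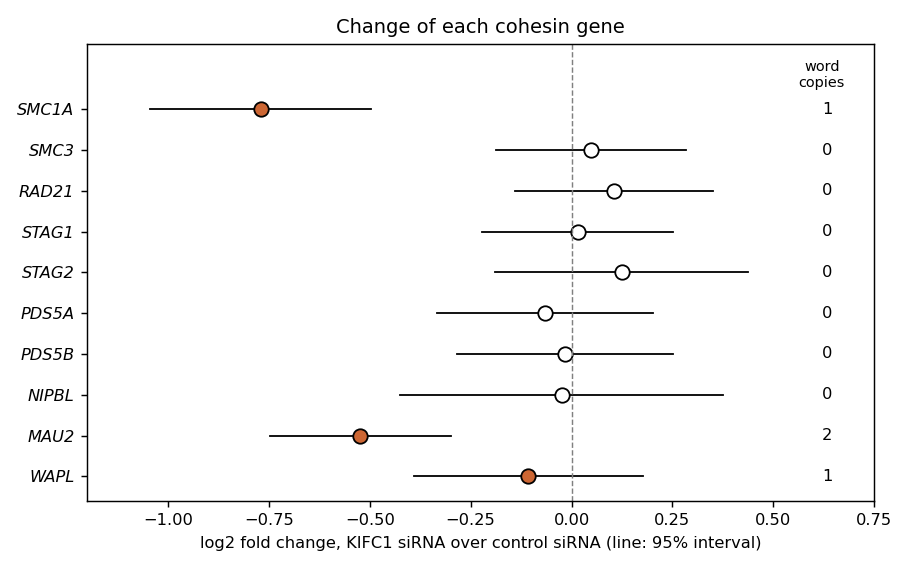
Log2 fold change (x axis, KIFC1 siRNA over control siRNA) of each cohesin gene with its 95% interval from edgeR. Filled points have the 7-base word in the 3′ UTR, with the number of copies at the right. SMC1A at -0.77 and MAU2 at -0.52 lie left of the other 8 genes, whose intervals all include 0, and the value of SMC1A is a description.

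The 8 partners other than *MAU2* followed the library more than the group. In all 8, KIFC1 siRNA replicate 3 was the highest of the 6 libraries and KIFC1 siRNA replicate 2 the lowest, an order at both ends that 9.73% of all genes tested showed. *MAU2* did not follow it, since KIFC1 siRNA replicate 3 was its lowest library. Without KIFC1 siRNA replicate 3, the log2 fold changes of these 8 genes lay between -0.31 and 0.00, 7 of them negative, and 2 had an unadjusted p under 0.05 while the smallest adjusted p was 0.134 in edgeR. *SMC1A* without that library was at -0.88 and *MAU2* at -0.47.

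Counts of *SMC1A* were set against those of each partner in the same library, which needs no scaling between libraries. The log2 ratio of *SMC1A* to *SMC3* was 1.07, 1.03 and 1.40 in the control siRNA libraries and 0.35, 0.32 and 0.39 in the KIFC1 siRNA libraries. The KIFC1 siRNA libraries lay close together and below every control. The mean difference was -0.81 against *SMC3*, -0.87 against *RAD21*, -0.78 against *STAG1* and -0.88 against *STAG2*, and the groups were apart for 8 of the 9 partners. Against *MAU2* the log2 ratio of *SMC1A* was 1.93, 1.74 and 2.07 with control siRNA and 1.57, 1.45 and 1.99 with KIFC1 siRNA. These values overlapped, and their means differed by -0.25. The ratios share *SMC1A*, which was chosen for its fall and whose own groups were apart. The count of 8 of 9 was therefore largely set by that choice, and the ratios are given with no test.

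**Figure D3:**
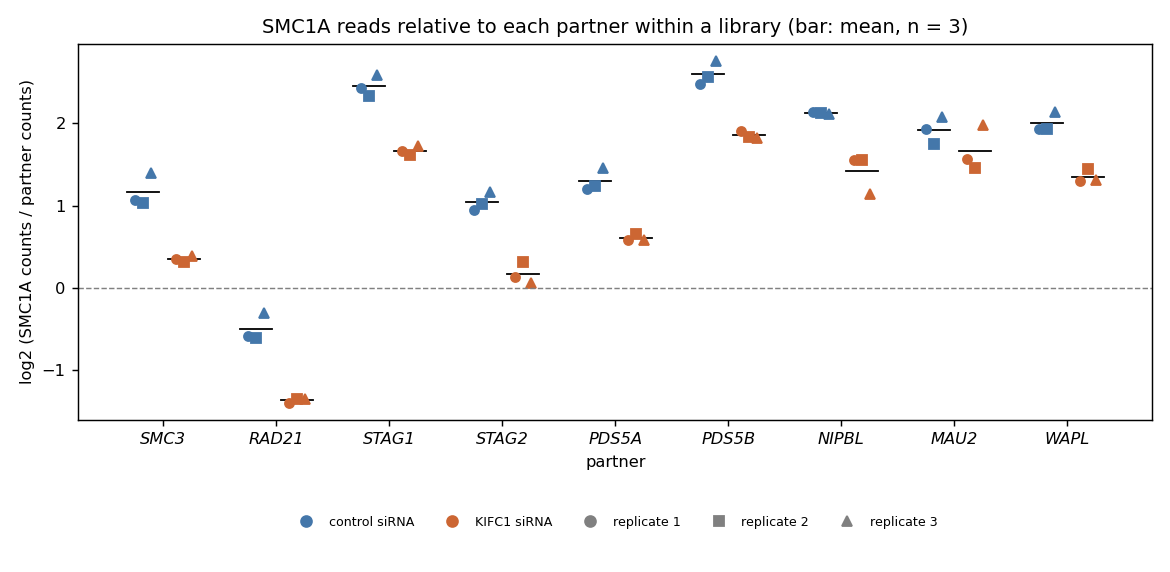
Log2 ratio of SMC1A counts to the counts of each partner (y axis) within each library, with control siRNA in blue, KIFC1 siRNA in orange, marker shapes for the replicate number and a bar at each mean (n = 3). The KIFC1 siRNA libraries lie below the control siRNA libraries for every partner except MAU2, where they overlap. As SMC1A was chosen for its fall, this is a description.

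Levels of different genes were compared as CPM per kilobase of the canonical transcript. In control siRNA libraries *RAD21* was highest at 181.8 ± 3.48, followed by *SMC1A* at 48.8 ± 5.64, *SMC3* at 38.1 ± 1.18, *STAG2* at 37.1 ± 2.198, *PDS5A* at 26.9 ± 1.10, *MAU2* at 25.8 ± 1.09, *WAPL* at 18.7 ± 0.716, *STAG1* at 14.2 ± 0.364, *PDS5B* at 10.4 ± 0.575 and *NIPBL* at 10.4 ± 1.25 CPM per kilobase (SD, n = 3). The neighbors *SMC3* and *STAG2*, *PDS5A* and *MAU2*, and *PDS5B* and *NIPBL* overlapped in their control libraries and were not apart beyond their spread. The mRNA level of *SMC1A* was thus above that of *SMC3* in every control library. With KIFC1 siRNA, *SMC1A* was at 28.6 ± 3.90 CPM per kilobase (SD, n = 3), behind *STAG2* at 40.4 ± 8.87 and *SMC3* at 39.4 ± 4.43, and the highest of its libraries, at 32.9, was below the lowest of *SMC3*, at 35.4. *MAU2* was sixth in both groups, with KIFC1 siRNA at 17.95 ± 1.17 CPM per kilobase (SD, n = 3). The order depends on the length used. Per kilobase of all annotated exons, *SMC3* came sixth in the control libraries at 13.6 ± 0.421 (SD, n = 3), *SMC1A* was at 43.8 ± 5.05 and overlapped *RAD21* at 46.3 ± 0.885, *SMC1A* was second in both groups, and *MAU2* went from seventh to ninth.

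The word GAGATCT was present in the 3′ UTR of 3 of the 10 cohesin genes, with 1 copy in *SMC1A*, 2 in *MAU2* and 1 in *WAPL*. The share was 8.42% among the 17093 counted genes whose 3′ UTR reached 50 bases. The 3′ UTRs of the 10 genes ran from 1521 to 5954 bases, against a median of 1191 bases, with that of *SMC1A* the longest. Among genes tested, the median log2 fold change was 0.02 in the 11808 genes with 0 copies, -0.11 in the 1037 with 1 copy and -0.19 in the 126 with 2 or more. The shares called lower were 0.0932%, 3.09% and 8.73%, while the median 3′ UTR length rose over the same classes from 1211 to 3226 and 5491 bases. Of the 3 cohesin genes with the word, *WAPL* did not pass the test. The coding sequences of *SMC1A*, *MAU2* and *NIPBL* also hold a copy, and *NIPBL* has 0 copies in its 3′ UTR. The part of the word in these changes was not tested.

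Genes that modify, protect or cut cohesin were described from a list of 32, of which 31 passed the filter. None of the 31 had an adjusted p under 0.05 in edgeR or in DESeq2, and 0 had an unadjusted p under 0.05 in edgeR. Over all 14776 genes tested, edgeR called 0.711%, and 1366 had an unadjusted p under 0.05. A list of this size with 0 calls at the adjusted p therefore says little. With 16 positive and 15 negative log2 fold changes, the median of the 31 was 0.00. The acetyltransferases that make cohesion stable, *ESCO1* and *ESCO2*, had log2 fold changes of 0.18 (SE 0.13) and 0.05 (SE 0.15). *CDCA5*, which encodes sororin, the antagonist of WAPL, went from 134.6 ± 3.41 to 119.0 ± 13.1 CPM (SD, n = 3; log2 fold change -0.18, adjusted p = 0.709 in edgeR). *SGO1*, the protector of centromeric cohesin, was at 19.0 ± 2.04 and 21.4 ± 3.00 CPM (SD, n = 3). *ESPL1*, which encodes separase, was at 129.5 ± 8.49 and 123.1 ± 5.21 CPM, and *PTTG1*, which encodes its inhibitor securin, at 158.4 ± 15.0 and 177.1 ± 13.4 CPM (SD, n = 3), with adjusted p of 0.905 and 0.759 in edgeR. The deacetylase that recycles SMC3, *HDAC8*, and the insulator factor that halts loop extrusion, *CTCF*, had log2 fold changes of -0.02 (SE 0.12) and -0.07 (SE 0.10). The checkpoint mediator *CLSPN*, named after its value was seen, had the lowest log2 fold change of the list at -0.26 (adjusted p = 0.652 in edgeR), and without KIFC1 siRNA replicate 3 it was -0.45 (adjusted p = 0.0230 in edgeR). That fit called 194 genes higher and 274 lower in all, against 49 and 56 with every library.

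Germline forms of the ring subunits stayed low. *SMC1B*, the meiotic counterpart of SMC1A, was at 2.34, 2.19 and 2.40 CPM with control siRNA and at 1.60, 1.71 and 1.41 CPM with KIFC1 siRNA. All KIFC1 siRNA libraries were below the controls, as in 7.51% of the genes tested. The log2 fold change of *SMC1B* was -0.55 (SE 0.25, edgeR unadjusted p = 0.0463, adjusted p = 0.526). It rested on 23 to 44 counts per library. The meiotic subunits *STAG3* and *REC8* had log2 fold changes of -0.32 (SE 0.23) and 0.40 (SE 0.33). The meiotic kleisin gene *RAD21L1* did not pass the filter.

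Genes of the related SMC complexes did not pass the test. Of the 8 condensin genes, 0 had an adjusted p or an unadjusted p under 0.05 in edgeR, with log2 fold changes from -0.13 to 0.07. The ATPase genes *SMC2* and *SMC4* of condensin, which compacts mitotic chromosomes, were at 0.03 (SE 0.14) and -0.06 (SE 0.14). Of the 9 genes of the SMC5-SMC6 complex, which acts in DNA repair, 7 passed the filter and 0 had an adjusted or unadjusted p under 0.05 in edgeR. *SMC5* and *SMC6* had log2 fold changes of -0.05 (SE 0.13) and 0.01 (SE 0.14). DESeq2 called 0 genes of either list, and 0 had an unadjusted p under 0.05 in it. In edgeR, 0.711% of all 14776 genes tested were called and 1366 had an unadjusted p under 0.05. Lists this small with 0 calls therefore say little about these complexes.

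The genes around *SMC1A* on chromosome X were also examined. *RIBC1*, which starts beside *SMC1A* on the opposite strand and shares 39 exon bases with it, was at 1.90 ± 0.0748 CPM with control siRNA and 1.71 ± 0.272 CPM with KIFC1 siRNA (SD, n = 3). *HSD17B10*, a mitochondrial dehydrogenase gene, had a log2 fold change of 0.04 (SE 0.13), and the ubiquitin ligase gene *HUWE1* one of -0.09 (SE 0.17). The histone demethylase gene *KDM5C* was at -0.10 (SE 0.10), *IQSEC2* at -0.08 (SE 0.23) and *TSPYL2* at -0.14 (SE 0.15). Of the 6 neighbors, 0 had an adjusted or unadjusted p under 0.05 in edgeR or in DESeq2. With 0.711% of all 14776 genes tested called in edgeR, and 1366 at the unadjusted p, 0 of 6 says little.

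**Figure D4:**
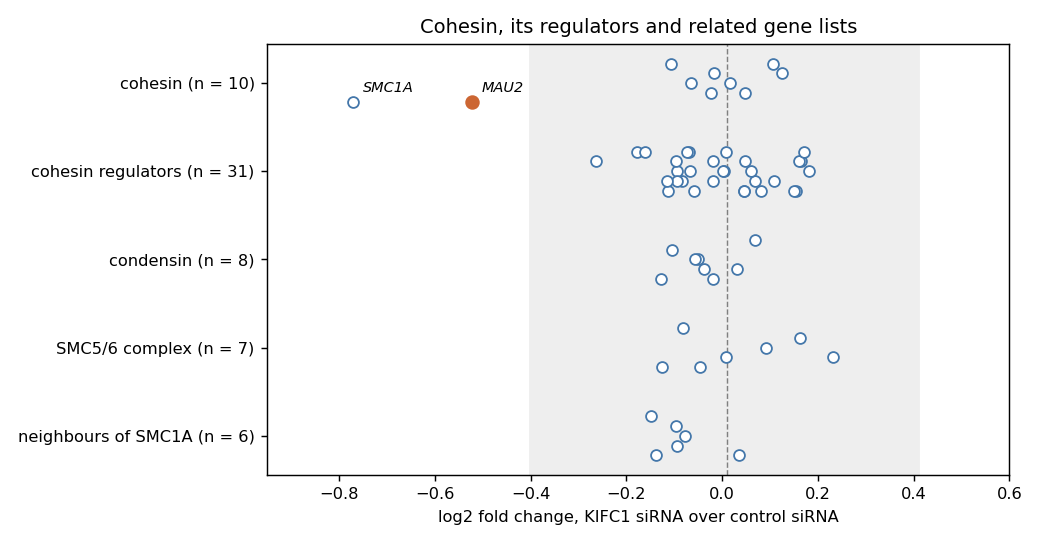
Log2 fold change (x axis, KIFC1 siRNA over control siRNA) of the tested genes of 5 lists (rows, points spread vertically for legibility), namely cohesin, its regulators, condensin, the SMC5-SMC6 complex and the neighbors of SMC1A, without the germline forms. The filled point is the gene with an adjusted p under 0.05 in edgeR (SMC1A, a description, is open), the dashed line is the median of all genes tested, and the gray band runs from their 5th to their 95th percentile, -0.40 to 0.41. Of the points plotted, SMC1A and MAU2 lie outside the band, as would the germline gene SMC1B at -0.55, which is not plotted.

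The genes most like *SMC1A* over the 6 libraries were ranked by Pearson's r of log2(CPM + 1) among 10076 genes with a mean of at least 10 CPM. The top 5 were *CPEB4* (r = 0.999), *SPRED1* (r = 0.997), *SV2B* (r = 0.997), *BAZ1A* (r = 0.996) and *CDK13* (r = 0.993). The points share the 2 groups, so a high r partly restates the difference between them, and no p is given. *CPEB4*, a regulator of mRNA polyadenylation, went from 38.6 ± 4.96 to 19.0 ± 3.19 CPM (SD, n = 3) and has 2 copies of GAGATCT in its 3′ UTR. *SPRED1*, *SV2B* and *BAZ1A* hold 2, 3 and 1 copies, and *CDK13* holds 0. Of the genes tested whose 3′ UTR reached 50 bases, 91.0% hold 0 copies, with a median 3′ UTR of 1211 bases. The 3′ UTRs of the top 5 run from 777 bases (*BAZ1A*) to 10013 bases (*SV2B*). The word and the top 5 were both picked through differences between these libraries, so their match is a description. Of the cohesin partners, *MAU2* ranked 435th (r = 0.864), *WAPL* 1557th (r = 0.623) and *PDS5A* 2056th (r = 0.530), while *SMC3* (r = 0.00976) and *RAD21* (r = -0.130) ranked 4863rd and 5586th.

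**Figure D5:**
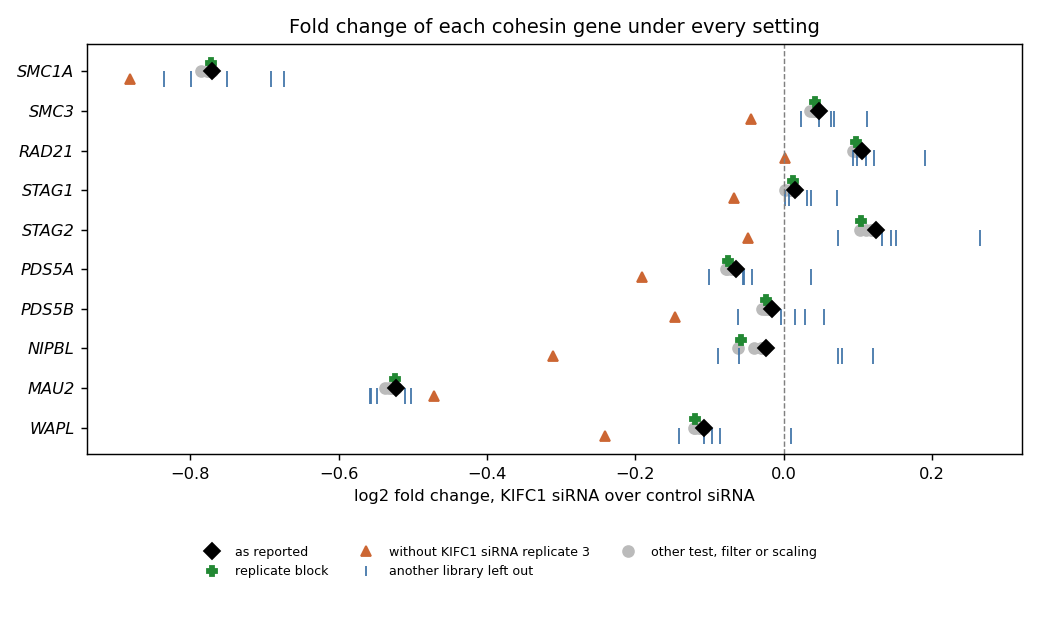
Log2 fold change (x axis, KIFC1 siRNA over control siRNA) of each cohesin gene as reported, in a fit blocked on replicate number, without each library, and under the other tests, filters and scalings. SMC1A runs from -0.88 to -0.67 and MAU2 from -0.56 to -0.47, and leaving out KIFC1 siRNA replicate 3 lowers the other 8 genes.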

How the data were processed

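The authors aligned reads to GRCh38 with HISAT2 2.2.1 and counted them per gene with featureCounts 2.0.8, per the labels, and deposited raw counts for 28395 genes by NCBI gene ID. The annotation and the strand setting are not given in the sources used here. Symbols came from RefSeq (27745 IDs matched). The deposited counts went into edgeR 4.0.16 (R 4.3.3) with filterByExpr, TMM scaling (CPM is a count over the TMM-scaled library size in megareads) and the quasi-likelihood F test with a robust prior, and p-values were adjusted by Benjamini-Hochberg across all 14776 genes that passed the filter. The SE of a log2 fold change was its size over the square root of the F statistic. Ratios used counts plus 0.5 and a two-sided exact permutation test. Transcripts, 3′ UTRs and overlaps came from GENCODE 44, and 32-base words were searched on both strands of GRCh38 outside the gene itself.

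Libraries of the same replicate number, taken from the labels, deviated together (r = 0.505, 0.406 and 0.482 over 11403 genes, after each group's mean was removed). Alternatives included DESeq2 1.42.0, limma-voom (limma 3.58.1), other filters and scalings, the replicate block and each library left out. Named genes were the cohesin genes, preset genes of each list, any gene past the threshold and the 5 most like *SMC1A*. The members and lists were chosen with earlier results of these data known. The test was checked on simulated data. Depth ran from 15392374 to 17754458 counts per library. Of the cell type markers examined, 1 is not reported here.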

Additional observations from a re-analysis of the deposited data

How the results depend on the processing

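Among the cohesin results, the call of *MAU2* depended most on the processing. The number of partners called was 1 as reported and 0 with library size as the only scaling, and from 0 to 1 with 1 library left out. The cohesin regulators called went from 0 to 1 with 1 library left out. Calls over all genes moved in these fits as well. They went from 49 higher and 56 lower as reported to 194 and 274 without KIFC1 siRNA replicate 3. Without any other single library they were 9 to 37 higher and 15 to 27 lower. In a fit with replicate number as the block, the log2 fold change of *MAU2* was -0.52 (adjusted p = 0.000202 in edgeR), the median of the partners was -0.02 and the *NIPBL* to *MAU2* ratio was 0.46 higher (exact sign-flip p = 0.25, the smallest that 3 pairs can give). The block changed no call of a cohesin gene or regulator, while 854 genes were called in all (5.78%) in place of 105. With 1 library left out, the sign changed for *SMC3* (-0.044 to 0.11), *STAG1* (-0.067 to 0.072), *STAG2* (-0.049 to 0.26), *PDS5A* (-0.19 to 0.037), *PDS5B* (-0.15 to 0.054), *NIPBL* (-0.31 to 0.12) and *WAPL* (-0.24 to 0.010), none of which passed the test in any of these fits. The cause of these shifts was not tested.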
